A study of Mus musculus with 3 samples.

Results

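A set of 4 genes was examined for PRDM2 and dimethylated lysine 9 of histone H3 (H3K9me2) at their promoters: Hnrpab, Syncrip, Ppm1a and Hrk. They are 4 of the 16079 gene names of a promoter array that had at least 3 usable probes on every array. Of all its 237203 probes outside the controls, 67 carry their names, 15 for Hnrpab, 19 for Syncrip, 20 for Ppm1a and 13 for Hrk. They were chosen by the ratios of IP over input described here, since in each gene at least 3 neighbouring probes exceeded the 95th percentile of all probes on every array. The ratios below are therefore a description and were not tested. The cells were C2C12, a mouse myoblast line, held in suspension in 2% methylcellulose to arrest them in G0, the non-dividing state. All 3 arrays came from arrested cells of this 1 line, treated alike with 1% formaldehyde and 0.125 M glycine. Besides these, no transgene or other treatment was named in the labels. No dividing or differentiated cells were analysed here. On 2 arrays (PRDM2 arrays 1 and 2) the Cy5 channel carried DNA pulled down with a PRDM2 antibody, on 1 array DNA pulled down with an H3K9me2 antibody, and on each array the Cy3 channel carried the matching input DNA. The dyes were not exchanged and no array of a control antibody was used here. Separate cultures are not named in the labels, so the SD of the PRDM2 arrays may be technical, and precision is limited by having so few arrays.

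PRDM2 (also called RIZ1 in its longer form) is a zinc finger protein with a PR domain, a relative of the SET domain of histone methyltransferases. H3K9me2 is a histone mark found mostly over silent chromatin, while active promoters with many CpG dinucleotides usually carry little of it. Hnrnpab, listed on the array under its former symbol Hnrpab, encodes an RNA-binding protein of the heterogeneous nuclear ribonucleoprotein (hnRNP) A/B type. Syncrip encodes hnRNP Q, an RNA-binding protein with roles in mRNA transport, stability and translation. Ppm1a encodes a metal-dependent serine/threonine phosphatase of the PP2C class, which acts on stress-activated kinases among other substrates. Hrk (harakiri) encodes a BH3-only protein that binds anti-apoptotic BCL2 relatives and promotes cell death.

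The values are log2 ratios of IP over input signal with the median probe of each array set to 0. A run is a stretch of at least 3 neighbouring probes of 1 gene, with gaps of at most 1000 bp, that all lie above the 95th percentile of the array. That limit was 4.52 on PRDM2 array 1, 3.85 on PRDM2 array 2 and 2.69 on the H3K9me2 array, or 22.9-fold, 14.4-fold and 6.45-fold above the median probe. Of 16164 promoters with at least 3 usable probes, 5 (0.0309%) held a run on all 3 arrays, and the 4 genes are among these 5. The fifth is listed under a RIKEN clone name, 1300012G16Rik. Each of the 4 runs was exactly 3 probes long, which made 12 run probes, and the other 55 probes of these genes lay outside the runs. Runs on both PRDM2 arrays, whatever H3K9me2, were found at 43 promoters (0.266%), and runs on the H3K9me2 array, whatever PRDM2, at 104 (0.643%). No probe of the 4 genes outside a run exceeded the limit on all 3 arrays, where 0.643% of all measured probes did.

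Positions were set by the letters of the probes. Of the 67 probes, 6 matched the RefSeq promoter sequence of their gene. Distances below are counted from the start that this sequence sets in GRCm38.p6, in the direction of transcription. In that build Hnrnpab lies at chr11:51600100-51606881 on the minus strand, Syncrip at chr9:88449364-88482591 on the minus strand, Ppm1a at chr12:72761211-72799819 on the plus strand and Hrk at chr5:118169764-118189478 on the plus strand. At Hnrpab, Ppm1a and Hrk the start used here is the first base of this span. At Syncrip it lies next to 88482398, inside the span, which on the minus strand begins at 88482591. Syncrip distances would differ if counted from 88482591. The array's own coordinates belong to another build, one not given in the sources used here. In array coordinates the runs are at chr11:51449777-51450140 (Hnrpab), chr9:88279553-88280476 (Syncrip), chr12:73680140-73680506 (Ppm1a) and chr5:118430772-118431171 (Hrk). All 4 runs lay at or just past the start of the gene. The Hnrpab run reached from 164 to 527 bases downstream and the Ppm1a run from 91 to 457 bases downstream. The Hrk run reached from -22 to 377 and covered the start itself. The Syncrip run, the longest at 924 bp, reached from -186 to 737, and no probe of the gene lay between its first probe, which ended at -142, and its second, which began at 429. By the gene span, that first probe (chr9:88482539-88482583 in GRCm38.p6) lies inside Syncrip. Whether a probe is exonic or intronic was not determined, since no exon map of the array's build was used here.

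The run probes are printed because they carry the finding, with CG dinucleotides in capitals. Each is 45 nt long and is given 5′ to 3′ as listed on the array; the probes that could be matched to RefSeq lie on the plus strand of their chromosome. A probe that reaches more than 30 bases past the start used here is shown by its first 30 bases. The counts of CG and the GC content given in the text are those of the whole probe. Probes are numbered in the direction of transcription. None of the 12 was found a second time on the array or in the RefSeq promoter sequence of another gene. Those sequences reach only a little past the start, and of the 12 only Syncrip probe 12 and Hrk probe 8 matched their own. The search therefore says little about copies elsewhere, and the rest of the genome was not searched.
Hnrpab probe 8: gcCGatgaCGcCGCGaggccctactCGcCG
Hnrpab probe 9: cttCGggggCGgcctCGtgtcCGttctCGg
Hnrpab probe 10: gttcttgctggCGttgatctggtCGccctc
Syncrip probe 12: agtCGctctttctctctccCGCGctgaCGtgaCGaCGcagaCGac
Syncrip probe 13: caaCGtgctcttctctcccccttggaatcc
Syncrip probe 14: gttcCGcCGccaagcacaCGccCGCGggag
Ppm1a probe 11: gagctagaaCGcCGtggtctcCGCGcCGgc
Ppm1a probe 12: cCGctcCGaCGccCGgatgatctgagcCGc
Ppm1a probe 13: tgctcCGggtaagCGCGgCGCGagggCGag
Hrk probe 8: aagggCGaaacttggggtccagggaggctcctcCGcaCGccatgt
Hrk probe 9: gaCGagctgcacCGaCGCGccatgCGgCGt
Hrk probe 10: ggagcCGagacccagccCGgacCGagcaac
The letters show how alike the runs are in base composition. The run probes averaged 70% GC (range 48.9 to 82.2%) and 6.5 CG per probe, while the 55 other probes of the same genes averaged 45.7% GC (range 28.3 to 75.6%) and 1.69 CG. Of the 12 run probes, 11 had 60% GC or more. The exception is Syncrip probe 13, with 48.9% GC and 1 CG.

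**Figure D1:**
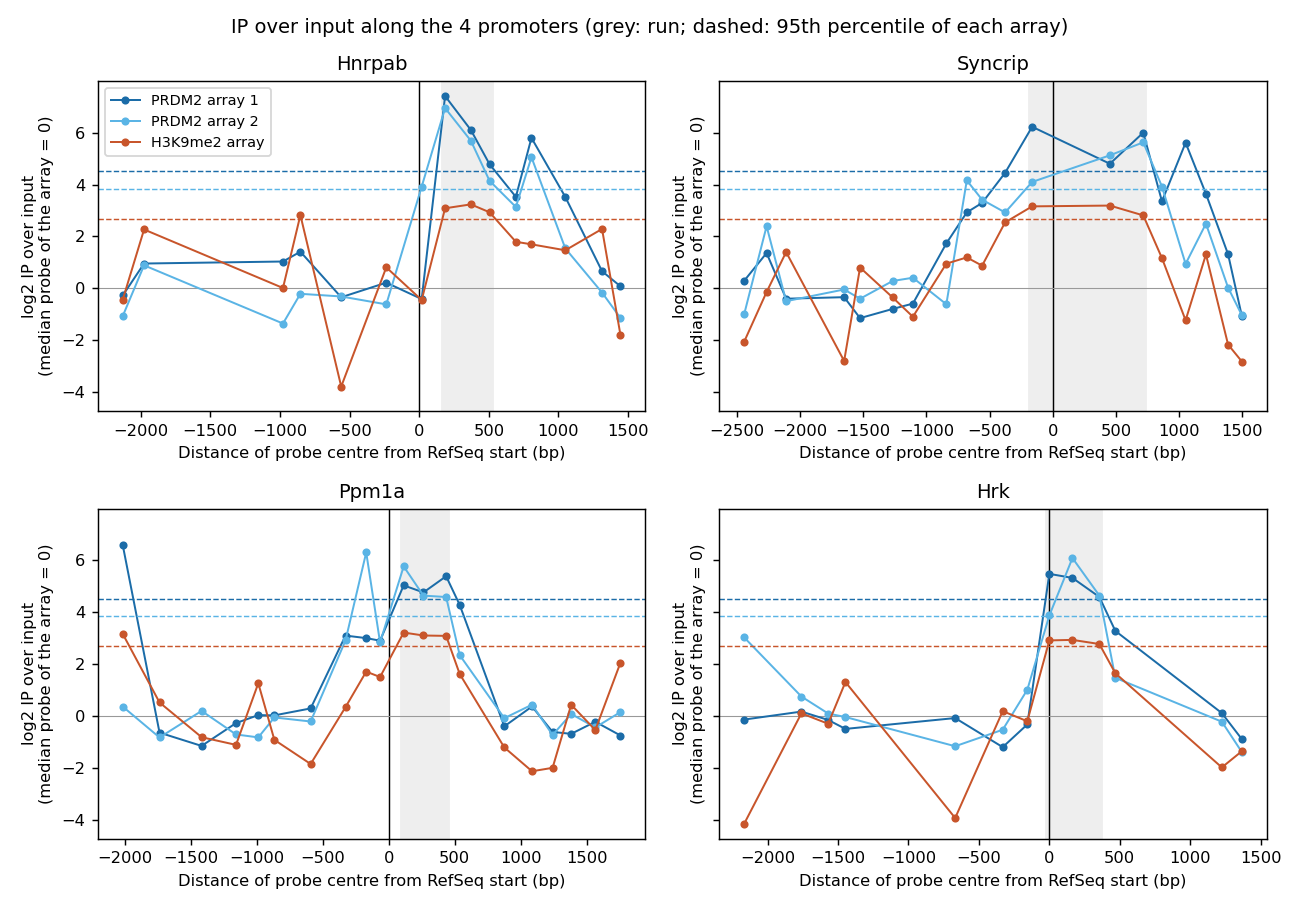
Log2 ratio of IP over input (vertical axis, median probe of the array at 0) against the distance of each probe's centre from the RefSeq start of the gene in bp (horizontal axis), for Hnrpab, Syncrip, Ppm1a and Hrk on the 3 arrays. Points are probes, dashed lines are the 95th percentiles (4.52, 3.85 and 2.69), the grey band is the run, and all 3 arrays are above their limits together only inside the band.

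At Hnrpab the 3 run probes averaged 6.10 on PRDM2 array 1, 5.60 on PRDM2 array 2 and 3.09 on the H3K9me2 array. The PRDM2 mean was 5.85 ± 0.36 (SD, n = 2), the highest of the 4 genes. Its 12 other probes averaged 1.35, 0.81 and 0.56 on the same arrays. Within the run the PRDM2 ratio was lower from probe to probe along the gene on both arrays. Probe 8, with 75.6% GC and 9 CG, measured 7.41 and 6.95 on the PRDM2 arrays and 3.09 on the H3K9me2 array. Probe 9, with 73.3% GC and 8 CG, measured 6.11, 5.69 and 3.24. Probe 10, with 62.2% GC and 5 CG, measured 4.79, 4.15 and 2.93. The H3K9me2 ratios of the 3 probes did not follow that order and differed little. The high ratio of probe 8 stood on a dim input: its IP signal was 14366 and its input 158.8 on PRDM2 array 1, where that input was at percentile 3.0 of all probes.

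Both sides of the Hnrpab run differed. Probe 7, which lies across the start (-4 to 40) and has 51.1% GC, measured -0.41 and 3.92 on the PRDM2 arrays and -0.45 on the H3K9me2 array, so the PRDM2 arrays did not agree there. Downstream, probe 12 (68.9% GC) measured 5.80 and 5.06 for PRDM2, above both limits, but 1.70 for H3K9me2, below its limit. Probe 11, between them, measured 3.53, 3.14 and 1.8 and was below all limits. Past the run PRDM2 was thus above its limits again at probe 12 and H3K9me2 was not. Far upstream, probe 4 (36.7% GC) was above the limit on the H3K9me2 array alone, at 2.82, with 1.41 and -0.21 for PRDM2.

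At Syncrip the 3 run probes averaged 5.68 and 4.95 on the PRDM2 arrays, a mean of 5.32 ± 0.51 (SD, n = 2), and 3.06 on the H3K9me2 array. Its 16 other probes averaged 1.48 and 1.09 for PRDM2 and -0.15 for H3K9me2. Probe 12 (62.2% GC, 7 CG), upstream of the start used here but inside the gene span, measured 6.23, 4.10 and 3.16. Its PRDM2 mean of 5.17 had an SD of 1.5 (n = 2), the widest spread among the 12 run probes. Probe 13 measured 4.80, 5.13 and 3.19. This probe of modest GC content was the lowest of the run on PRDM2 array 1 and the highest on the H3K9me2 array. Probe 14, with 75.6% GC and 7 CG, measured 6.0, 5.63 and 2.81.

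Probes beside the Syncrip run also had PRDM2 ratios above the median probe. Upstream, probe 11 (55.6% GC) measured 4.45, 2.93 and 2.54, just below the limits on PRDM2 array 1 and on the H3K9me2 array. Probe 15, downstream with 73.3% GC, measured 3.36, 3.93 and 1.17. Its IP signals, 52597, 77340 and 15737, were high, and so were its inputs, at or above percentile 98.7 on each array. Probe 16 (45.1% GC) measured 5.61 on PRDM2 array 1 but 0.94 on array 2 and -1.23 for H3K9me2, so its high value was not repeated on the second PRDM2 array.

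At Ppm1a the 3 run probes averaged 5.06 and 5.0 on the PRDM2 arrays, a mean of 5.03 ± 0.05 (SD, n = 2), and 3.14 on the H3K9me2 array, the highest H3K9me2 mean of the 4 genes. The 17 other probes averaged 0.93, 0.69 and 0.12. Probe 11 measured 5.04, 5.77 and 3.22, probe 12 measured 4.77, 4.64 and 3.11, and probe 13 measured 5.39, 4.59 and 3.09. All 3 have 73.3% or 75.6% GC and 7 or 8 CG, and their H3K9me2 ratios lay close together. The probes next to the run are also GC-rich. Probe 10 (73.3% GC, 4 CG) measured 2.91, 2.84 and 1.5. Probe 14 (73.3% GC, 6 CG) measured 4.29, 2.35 and 1.62, with an input not well above background on any of the 3 arrays and an IP signal so only on PRDM2 array 1.

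A pair of other Ppm1a probes were high on some arrays only. Probe 9 (73.3% GC, -193 to -149) measured 6.31 on PRDM2 array 2 but 3.0 on array 1 and 1.71 for H3K9me2. Probe 1 (-2047 to -1988), with 36.7% GC and no CG, measured 6.59 on PRDM2 array 1 and 3.17 on the H3K9me2 array but 0.36 on PRDM2 array 2, where its IP signal was not well above background. Neither had PRDM2 arrays that agreed.

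At Hrk the 3 run probes averaged 5.13 and 4.87 on the PRDM2 arrays, a mean of 5.0 ± 0.18 (SD, n = 2), and 2.88 on the H3K9me2 array. The 10 other probes averaged 0.03, 0.30 and -0.87, the lowest surroundings of the 4 genes on every array. Probe 8, on the start with 64.4% GC, measured 5.48, 3.88 and 2.92. Probe 9, with 82.2% GC and 11 CG the richest of all 12, measured 5.33, 6.09 and 2.94. Its input was not well above background on either PRDM2 array (93.6 and 41.2), so its PRDM2 ratios are bounds of at least 5.16 and at least 5.74, both still above the limits; each bound sets the lowest input signal of a probe well above background in place of its own. With probe 9 at these bounds the PRDM2 mean of the run is at least 4.92 ± 0.23 (SD, n = 2), and over the other 2 probes it is 4.65 ± 0.55. Probe 10, with 71.1% GC, measured 4.59, 4.65 and 2.78. When limits and runs were taken over probes of bright input alone, Hrk probe 10 passed on all 3 arrays, probes 8 and 9 did not, and the run was lost. Upstream, probe 7 (47.8% GC) measured -0.32, 1.01 and -0.20, and downstream, probe 11 (52.2% GC) measured 3.28, 1.47 and 1.65.

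The smallest margins of single probes belonged to Hrk on each array. On PRDM2 array 1 the lowest probe of a run was Hrk probe 10 at 4.59, and the member probe next below the limit was Syncrip probe 11 at 4.45. On PRDM2 array 2 they were Hrk probe 8 at 3.88 and Syncrip probe 10 at 3.42. On the H3K9me2 array they were Hrk probe 10 at 2.78 and Syncrip probe 11 at 2.54. Slightly higher limits would thus end the Hrk run first. As means over the run, Hnrpab passed the limits by the most for PRDM2 (1.58 and 1.75), Ppm1a by the most for H3K9me2 (0.45) and by the least on PRDM2 array 1 (0.55), and Hrk by the least on PRDM2 array 2 (1.02) and for H3K9me2 (0.19). The runs also depended on the normalization. From normexp signals Syncrip alone kept its run, after loess none of the 4 genes did, and in the authors' deposited table of values Hnrpab and Syncrip did.

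Across the 4 genes the order of the run means for PRDM2 was Hnrpab (5.85), Syncrip (5.32), Ppm1a (5.03) and Hrk (5.0, which rests on a bound at probe 9). Hnrpab was above Syncrip on both arrays (6.10 against 5.68 and 5.60 against 4.95), although their values overlapped between arrays, and it was above Ppm1a and Hrk with no overlap. Syncrip was above Ppm1a on array 1 (5.68 against 5.06) and not on array 2 (4.95 against 5.0). Ppm1a and Hrk also changed places between the arrays (5.06 against 5.13 and 5.0 against 4.87). The order also depended on the normalization. From normexp signals Syncrip (3.05) stood above Hnrpab (2.82), and after loess Syncrip (2.34) stood last. The H3K9me2 means were close, from 2.88 at Hrk to 3.14 at Ppm1a, and 1 array gives no spread to set them against. The H3K9me2 order did not repeat the PRDM2 order. At each of the 12 run probes both PRDM2 ratios were larger than the H3K9me2 ratio, as at 34 of the 55 other probes. The limits that chose the run probes are higher for PRDM2 (4.52 and 3.85) than for H3K9me2 (2.69), so nothing is read from this. The PRDM2 mean exceeded the H3K9me2 value by 2.76 at Hnrpab, 2.26 at Syncrip, 1.89 at Ppm1a and 2.13 at Hrk. The arrays differ in range, as their limits show, and this difference turned to -0.53, -0.47 and -0.32 at Syncrip, Ppm1a and Hrk (0.49 at Hnrpab) when the ratio was built from background-corrected raw signals (normexp). It was also below 0 at Ppm1a (-0.58) and Hrk (-0.077) with the trend on GC content removed, so no order of the antibodies is read from it.

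**Figure D2:**
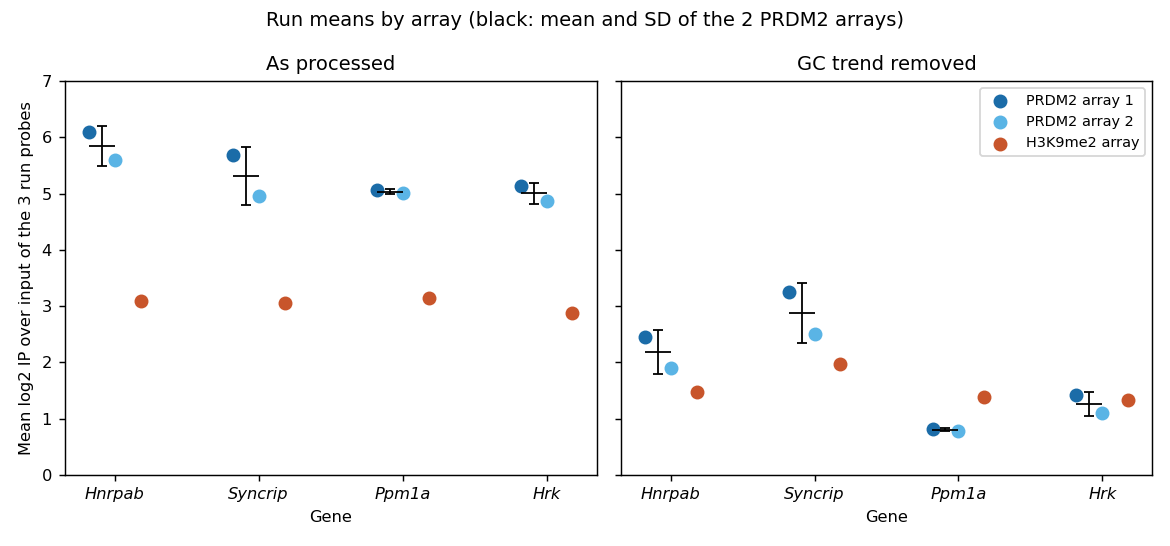
Mean log2 ratio of IP over input of the 3 run probes (vertical axis) of each gene (horizontal axis) on each array, as processed at left and with the trend on GC content removed at right; coloured points are arrays and black marks are the mean and SD of the 2 PRDM2 arrays. At left PRDM2 lies between 4.87 and 6.10 and H3K9me2 between 2.88 and 3.14; at right Syncrip is highest for both and Ppm1a is lowest for PRDM2.

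GC content moved with these ratios on every array. Over all probes the log2 ratio correlated with GC content at r = 0.487 and 0.585 on the PRDM2 arrays and at r = 0.316 for H3K9me2. Along the members' own probes these correlations were higher, from 0.705 at Syncrip to 0.907 at Hnrpab on PRDM2 array 1 (n = 13 to 20 probes), from 0.764 to 0.941 on PRDM2 array 2 and from 0.581 to 0.716 on the H3K9me2 array. The genes were chosen by these same ratios, so nothing is read from the higher correlations along their probes. The 2 PRDM2 arrays correlated with each other at 0.744 to 0.855 along the members and at 0.652 over all probes. The points share their probe sequences, and so their base composition, between arrays. Probes of 60% GC or more made up 8.66% of all probes and held 61.3% of those above the limit on all 3 arrays. Of such GC-rich probes 4.53% were above the limit on all 3 arrays, against 0.643% of all probes. The part of GC content in the runs was not tested beyond the values that follow.

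**Figure D3:**
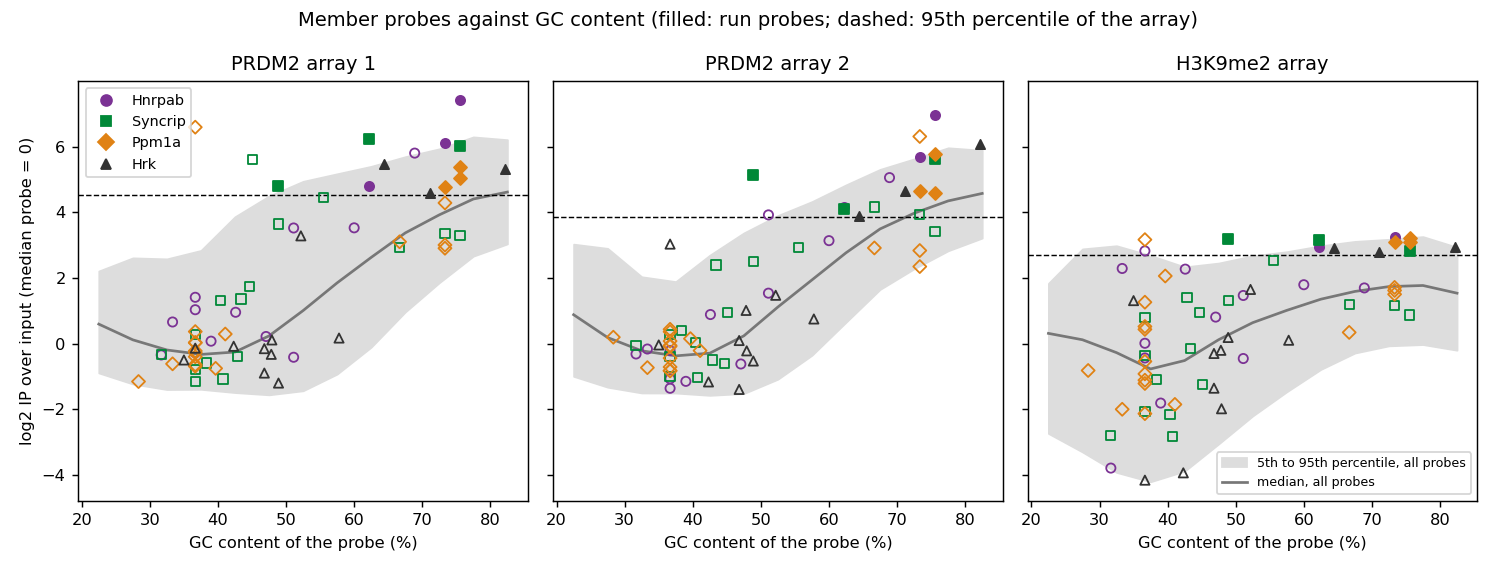
Log2 ratio of IP over input (vertical axis) against the GC content of the probe in percent (horizontal axis) on each array, for the 67 probes of the 4 genes; filled symbols are run probes, open symbols other probes, the grey band the 5th to 95th percentile and the grey line the median of all probes in GC classes. The band itself rises with GC content, most run probes of Ppm1a and Hrk sit inside it, and Syncrip probe 13 (48.9% GC) sits at or above its upper edge on all 3 arrays.

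The run probes were also set against all probes of like GC content (within 2.5 percentage points). Syncrip probe 13 stood at percentiles 95.6 and 99.2 for PRDM2 and 98.8 for H3K9me2 among 32384 such probes. Hnrpab probe 9 stood at percentiles 95.7, 95.1 and 95.3. These were the only 2 of the 12 run probes above the 95th percentile of like probes on all 3 arrays, where 0.574% of all measured probes were. As the runs were chosen from the same ratios, this count is a description. Hnrpab probe 8 stood at percentiles 99.6 and 99.3 for PRDM2 and 93.3 for H3K9me2, and Hnrpab probe 10 at 89.8, 86.8 and 94.5. Syncrip probe 12 stood at 98.5, 86.1 and 96.6, and Syncrip probe 14 at 93.6, 92.7 and 88.3, the last being the lowest of the 12 for H3K9me2. The Ppm1a run stood between percentiles 65 and 94.2 for PRDM2, while for H3K9me2 it stood between 93.4 and 94.9, inside the range of the Hnrpab run (93.3 to 95.3). On PRDM2 array 1 the Ppm1a run, at most at percentile 84.2, lay below the Hnrpab and Syncrip runs, and on array 2 it overlapped with both. The Hrk run spread from percentile 73.7 to 95 on PRDM2 array 1 and from 76.5 to 96.7 on array 2, and from 88.6 to 94.9 for H3K9me2. The 96.7 belongs to probe 9, whose dim input gives only a bound, at percentile 92.6; on array 1 that bound is at percentile 71.5 and is then the lowest of the run. The median of the 12 probes was percentile 94.2 of like probes for H3K9me2 and 91.7 and 89.7 for PRDM2.

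**Figure D4:**
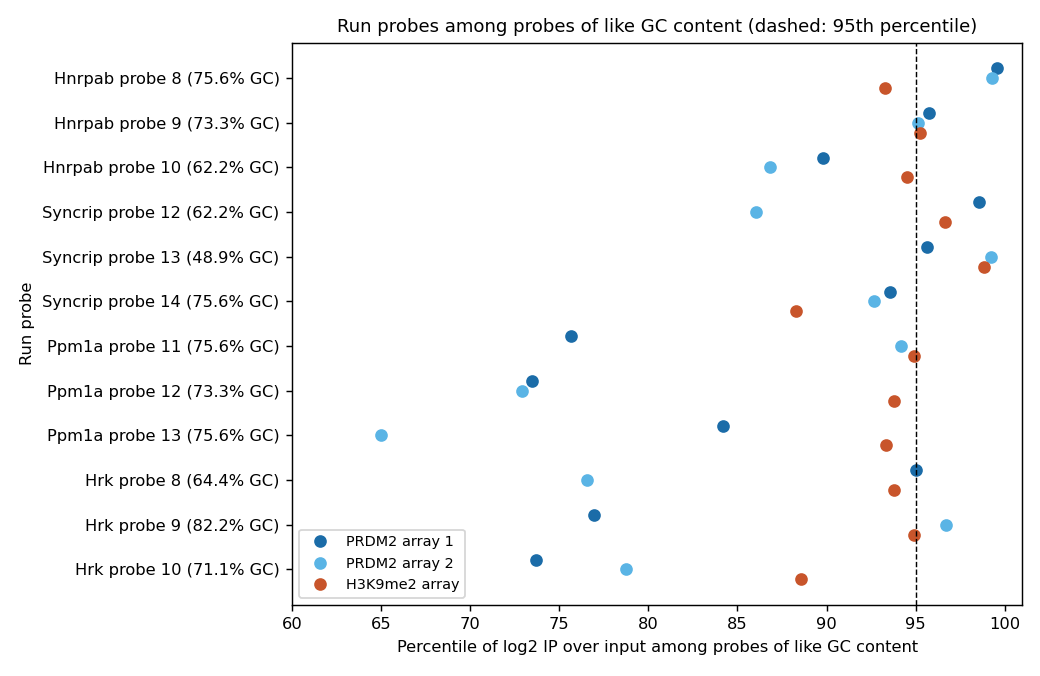
Percentile of the log2 ratio of each of the 12 run probes among all probes of the array within 2.5 percentage points of its GC content (horizontal axis, starting at 60), one line per probe with the 3 arrays as coloured points; the dashed line is the 95th percentile. Hnrpab probe 9 and Syncrip probe 13 lie past the line on all 3 arrays, and the lowest points are PRDM2 values of Ppm1a and Hrk.

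Removing the trend on GC content (the median of each 5-point class) changed the order of the genes. The PRDM2 run mean became 2.88 ± 0.53 at Syncrip, 2.18 ± 0.39 at Hnrpab, 1.26 ± 0.22 at Hrk and 0.80 ± 0.03 at Ppm1a (SD, n = 2). For H3K9me2 it became 1.97 at Syncrip, 1.46 at Hnrpab, 1.38 at Ppm1a and 1.33 at Hrk. All 12 values by gene and array stayed above 0, but no promoter of the array then held a run on all 3 arrays, and Syncrip probe 13 was the only member probe still above the limits. Over the whole array 0.534% of the probes were above the limits of that setting on all 3 arrays. Of 20 member probes with 60% GC or more, 11 were run probes by the rule and 9 lay outside the runs. Of these 9, 1 and 4 were above the limits of the PRDM2 arrays and 0 above that of the H3K9me2 array. Their medians were 3.29, 3.42 and 1.5 and their highest values 5.80, 6.31 and 1.8. Since the rule itself placed the others in the runs, nothing is read from the difference.

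The signals behind the ratios differed between the runs. All 12 run probes had IP signal well above background on every array, 11, 11 and 12 had input signal so, and no spot was saturated. The median run probe had an IP signal at percentiles 91.4, 92.6 and 92.7 of all probes. Its input was at percentiles 37.5, 41.4 and 61.3, and among probes of like GC content at 21.9, 26.4 and 35.2. Ppm1a probe 13, Hrk probe 10 and Syncrip probe 14 combined a bright IP with a bright input: for Hrk probe 10 the IP signal was 41268, 39617 and 13853 and the input 3227, 2759 and 2441. Hnrpab probe 8 and Hrk probe 9 had inputs at or below percentile 10.7 on all 3 arrays. When the IP signal alone was held to its 95th percentile, a check chosen after seeing the data, none of the 4 genes had a run, and the member probes that passed were Syncrip probe 15, Ppm1a probe 13 and Hrk probe 10.

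The ratios outside the runs were spread widely. Of the 55 probes, 47 were below the limit on all 3 arrays, 6 were above it on 1 array and 2 on 2 arrays. Their median ratio was 0.11, 0.08 and 0.11, but 24, 24 and 36 of them lay more than 1 log2 unit from the median probe in either direction, and 47, 40 and 45 of the 55 had an IP signal well above background. Averaged over all its probes, Hnrpab reached 2.03 ± 0.38 for PRDM2 (SD, n = 2; rank 206 of 16164 promoters) and 1.06 for H3K9me2 (rank 565). Syncrip reached 1.92 ± 0.31 (rank 271) and 0.35 (rank 2974), and Ppm1a 1.45 ± 0.15 (rank 1056) and 0.57 (rank 1813). Hrk reached 1.28 ± 0.11 (rank 1645), while its H3K9me2 mean was -0.0023 (rank 5833). For PRDM2 the order of the promoter means was that of the runs. All 4 genes ranked lower for H3K9me2 than for PRDM2, Hrk by the most.

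The RefSeq sequence of the 250 bases upstream of each start used here adds to the picture of the base composition. Its GC content was 58.4% at Hnrpab, 72.8% at Syncrip, 77.6% at Ppm1a and 63.2% at Hrk, against a median of 52.4% over 32851 RefSeq promoters. It held 23, 31, 31 and 21 CG, where the median promoter held 6. By CG count the 4 stood between percentiles 85.2 and 95.4. The windows of Syncrip and Hrk are printed because a run probe reaches into them, 5′ to 3′ in the direction of transcription, with each GC box (GGGCGG or its reverse complement CCGCCC) in capitals. The Syncrip window is GRCm38.p6 chr9:88482398-88482647, minus strand, and the Hrk window chr5:118169514-118169763, plus strand. The Syncrip gene span begins at 88482591 on the minus strand, so most of the Syncrip window lies inside the gene.
Syncrip upstream: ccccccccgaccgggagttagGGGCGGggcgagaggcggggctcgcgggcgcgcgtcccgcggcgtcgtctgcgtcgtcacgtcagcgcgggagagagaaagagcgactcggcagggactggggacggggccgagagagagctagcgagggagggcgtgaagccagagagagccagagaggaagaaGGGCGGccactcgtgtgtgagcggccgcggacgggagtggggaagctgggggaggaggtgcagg
Hrk upstream: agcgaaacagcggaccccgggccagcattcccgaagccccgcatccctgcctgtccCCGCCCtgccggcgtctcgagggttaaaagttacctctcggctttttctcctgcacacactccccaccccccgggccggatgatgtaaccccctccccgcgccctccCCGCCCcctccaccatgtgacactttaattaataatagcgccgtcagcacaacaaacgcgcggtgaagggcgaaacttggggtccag
A GC box, the binding motif of SP family factors, was found 1 time at Hnrpab, 2 times at Syncrip, 4 times at Ppm1a and 2 times at Hrk, on either strand. At least 1 was present in 32.7% of all such windows. CCAAT was found 3 times at Hnrpab and at none of the others (33.8% of all windows hold it). Neither strand of the 4 windows held TATAAA (12.4% of all windows), CACGTG (6.02%) or CCGGAAG (6.91%). These counts say only which letters are in the windows.

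A run was by its definition held within 1 gene, so the neighbouring promoters on the array are described by their promoter means only. Within 50000 bp Hnrpab has Nola2 on one side, with a promoter mean of 0.48 and -0.19 for PRDM2 and -1.12 for H3K9me2, and Agxt2l2 on the other, with 0.32, 0.78 and -0.61. Snx14, beside Syncrip, measured -0.67, 0.13 and -0.53. Fbxw8, beside Hrk, measured 1.01, 0.45 and -0.38. Ppm1a has no other gene name of the array within that distance. None of these 4 neighbours reached the promoter mean of its member on any array. The members were chosen for high ratios on these arrays, so nothing is read from this.

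By the distance between promoter means on the 3 arrays, Col4a3bp (0.04), Mag (0.10) and Igf2 (0.16) were most like Hnrpab. Car7 (0.10), Map3k5 (0.11) and Brwd1 (0.12) were most like Syncrip. Gpsm1 (0.06), Pnck (0.06) and Jarid1b (0.07) were most like Ppm1a, and Clic4, Srrm1 and Tubb3 (0.05 each) were most like Hrk. Likeness over 3 values is easily met among 16164 promoters. None of these 12 promoters held a run on all 3 arrays, and none could. The only promoter with a run besides the members, 1300012G16Rik, was passed over here for its RIKEN name.

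Relatives of the 4 genes were taken from lists chosen with earlier results of these data known. Besides the 4 genes only 1300012G16Rik held a run, so the counts of 0 runs among relatives were fixed in advance. Nothing is read from them. Among 22 other hnRNP genes, RNA-binding relatives of Hnrpab and Syncrip, 0 had a run on all 3 arrays (0.0309% of all promoters) and 2, Hnrpf and Hnrpa3, had a probe above the limit on all 3 arrays (8.43% of all promoters). Their median promoter mean was 0.95 for PRDM2 and 0.04 for H3K9me2, beside 0.50 and -0.23 over all promoters. Their mean GC content was 46.6%, beside 43.7%. Ranked by their lowest array value, the first 3 were Hnrpr (1.83, 1.59 and 0.99), Hnrpf (1.83, 1.25 and 0.53) and Hnrpdl (1.73, 1.85 and 0.51). Hnrpr was near Hnrpab in promoter mean on the H3K9me2 array but held no probe above all limits.

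Among 14 other phosphatases of the PPM family, 0 had a run (0.0309% of all promoters), again fixed in advance. Of these, 3 (Ppm1f, Ppm1h and Ppm1b) had a probe above the limit on all 3 arrays (8.43% of all promoters). Their median was 0.76 for PRDM2 and -0.16 for H3K9me2, and their mean GC content 44.9%. Ppm1f led by that ranking, with 2.29 and 0.87 on the PRDM2 arrays and 0.34 for H3K9me2, so that its PRDM2 arrays were far apart. Ppm1j measured 1.63, 1.34 and 0.34. Ppm1h measured 1.34, 1.18 and 0.23.

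Hrk belongs to the BCL2 family, the regulators of mitochondrial cell death. Among its 20 other members 0 had a run (0.0309% of all promoters), again fixed in advance. The anti-apoptotic Mcl1 alone had probes above the limit on all 3 arrays, 2 of them (8.43% of all promoters had at least 1). The median was 0.92 for PRDM2 and -0.41 for H3K9me2, with a mean GC content of 46.6%. The first 3 by the lowest array were Bak1, a pore-forming effector (1.20, 2.45 and 0.74), Bnip3l (1.15, 1.0 and 0.69) and Bbc3, which encodes the BH3-only protein PUMA (1.26, 1.42 and 0.60). All 3 lists had PRDM2 medians above that of all promoters, and their mean GC content was above it as well; the part of GC content in this was not tested.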

How the data were processed

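Each array was a custom Agilent promoter design scanned in both colours. Per the file headers, the deposited processed signal intensities were made with Agilent Feature Extraction 10.5.1.1, with spatial detrending, background subtraction, dye normalization and surrogate values for dim spots. The raw mean and background intensities, and the log10 ratio used as a check, are as deposited in the same files. Deposited flags, a score of 0 or 1 per the file headers, mark outlier, saturated and well-above-background spots. The authors' deposited value table is on a log2 scale, as found by comparison with the scanner values (r = 0.964, 0.941 and 0.972; medians 0.124, 0.103 and 0.278); its tool was not given in the sources used here. IP was well above background at 71.1% to 78.9% and input at 92.8% to 99.02% of the probes.

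The log2 ratio of red (IP) over green (input) was taken per probe, spots marked as outliers were dropped (773, 107 and 218), and the median probe of each array was set to 0 (-0.91, -0.80 and -0.27 before centring). No loess or quantile step was used, since many promoters may shift one way. Promoters were probes of 1 gene name, split at gaps over 10000 bp. GC classes were 5 points wide. No test was made, because the genes were chosen from these ratios; counts are given beside those of all promoters or probes. The search for runs was tested on simulated data with planted runs far higher than those described here. It does not show how well runs of the size reported are found. The members, lists and rules were chosen with earlier results of these data known. Named besides the members were promoters with a run, the 3 most alike per member, the nearest neighbours within 50000 bp, and up to 3 relatives per list by the lowest array. Genes under RIKEN, Gm or accession names were passed over among the promoters with a run and the most alike. The gene 1300012G16Rik was named after its values were seen. Alternatives covered normalization, GC content, limits, gaps, run length, dim input and arrays left out. PRDM2 array 2 and the H3K9me2 array were scanned on the same day and PRDM2 array 1 on another, so values without PRDM2 array 1 are those within a scan day. Tools were R 4.3.3 with limma 3.58.1 and data.table (version 1.17.8), and Python 3.11.15 with numpy 2.4.6, pandas 2.3.3 and matplotlib 3.10.9. Promoter sequences are from RefSeq (GRCm38.p6), which held all 4 members.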

Additional observations from a re-analysis of the deposited data

Results flagged for a closer look

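In 3 cases both PRDM2 arrays lay above the median probe and the H3K9me2 array below it. The mean over all probes of Hrk was 1.21 and 1.36 for PRDM2 and -0.0023 for H3K9me2, which is hardly different from 0. The Hrk probes outside the run averaged 0.03 and 0.30 for PRDM2 and -0.87 for H3K9me2. The Syncrip probes outside the run averaged 1.48 and 1.09 for PRDM2 and -0.15 for H3K9me2. The difference between the antibodies was not tested in any of these cases, since there is 1 H3K9me2 array. No group held enough arrays to look for a sample apart from the rest.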

How the results depend on the processing

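The runs depended on the processing. All 4 genes kept a run with outlier spots kept, at the 90th percentile (55 promoters in all), with no gap limit and without either PRDM2 array (6 to 11 promoters and 12 to 13 member probes; 11 without PRDM2 array 1). With only bright inputs Hrk lost its run, and with gaps of at most 500 bp Syncrip did. Hnrpab and Syncrip, 2 genes, kept a run in the authors' deposited value table, and under normexp 1 (Syncrip, with 7 member probes past the limit). Under loess 0 genes, 2 promoters and 2 member probes passed, with the GC trend removed 0 genes, 0 promoters and 1 member probe, at the 99th percentile 0, 0 and 0, and with runs of at least 4 probes 0 genes and 0 promoters. Chosen after seeing the data, the IP signal alone gave 0 genes, 19 promoters and 3 member probes, and probes of like GC content gave 2 member probes.

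Over the 12 run probes the PRDM2 mean was 5.30 (5.11 to 5.49 by single array). It became 2.63 under normexp, 3.32 under loess, 1.78 with the GC trend removed, 4.80 with the median promoter as 0 and 1.68 over all member probes. H3K9me2, 3.04, became 2.24 under loess, 1.54 with the GC trend removed and 0.51 over all member probes. The difference of PRDM2 and H3K9me2, 2.26 (2.07 to 2.46), became -0.21 under normexp, 1.08 under loess, 0.24 with the GC trend removed, 1.53 with the median promoter as 0 and 1.17 over all member probes. By gene it turned to -0.53 (Syncrip), -0.47 (Ppm1a) and -0.32 (Hrk) under normexp, and to -0.58 (Ppm1a) and -0.077 (Hrk) with the GC trend removed; H3K9me2 over all Hrk probes was -0.0023. The cause of these changes was not tested. No paired analysis was possible because the H3K9me2 group has 1 array and its label carries no replicate number. With 2 arrays of PRDM2, 1 of H3K9me2 and no dye swap, dye bias cannot be told apart from enrichment, and dim inputs limit the ratio at Hrk probe 9.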

Other observations

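The fifth promoter with a run on all 3 arrays is listed under the clone name 1300012G16Rik on chromosome 5. It met the same rule as the members, which fixed its high ratios in advance. Its 3 run probes averaged 65.9% GC and measured 5.53 and 5.37 on the PRDM2 arrays and 3.21 on the H3K9me2 array, the highest H3K9me2 mean of the 5 runs. Loosening the rule to 2 neighbouring probes gave 49 promoters (0.303%) and to a single probe 1362 (8.43%).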
